A study of Homo sapiens with 12 samples.

Results

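The 9 large genes studied here encode proteins that crosslink actin or tie it to other filaments. They were examined in lists of sites bound by an antibody against 1-methylguanosine (m1G), a methylated form of guanosine, in PANC-1 cells. PANC-1 is an established human line from a pancreatic ductal adenocarcinoma. The 9 genes were picked by name, with earlier results of these data known. They are the filamins FLNA and FLNC, the α-actinins ACTN1 and ACTN4, the spectrins SPTAN1 and SPTBN1, and the cytolinkers PLEC, MACF1 and DST. These genes are 9 of the 20050 protein-coding genes of the RefSeq table used here. Their spans held 42 of the 9585 peaks of the deposited MetDiff list (0.438%) and 64 of the 3705 summits of the deposited MACS2 list (1.73%). A summit is a single base at which a MACS2 peak has a local maximum. A MACS2 peak can hold several summits, and these 64 lay in 50 MACS2 peaks.

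The libraries were made from fragmented polyadenylated RNA, in 4 groups of 3, all of experiment 2 and all from PANC-1 cells transfected with siRNA. They are RNA precipitated with the anti-m1G antibody from cells depleted of TRMT5 for 4 days, input RNA from the same kind of cells, precipitated RNA from control cells, and input RNA from control cells, labelled WT control. TRMT5 is the methyltransferase that makes m1G beside the anticodon of tRNAs, and the study asked which mRNAs may carry m1G. Both lists describe the series as a whole. Neither gives a separate figure for any library or a labelled contrast of TRMT5 depletion with control, so the groups could not be compared, and the read depth is unknown. The protocol also names a GFP antibody, and libraries made with it were not analysed here. The RNA came from 1 cell line, and the labels do not say whether the replicates were separate cultures. Of the 6 ductal and epithelial markers looked up, 4 had a MetDiff peak (KRT8, KRT18, KRT19 and CDH1, but not KRT7 or EPCAM) and 2 a summit (KRT8 and KRT18). Of the mesenchymal markers, VIM had 2 MetDiff peaks and 5 summits and CDH2 had 2 MetDiff peaks and 0 summits, while 0 of 5 acinar and islet markers and 0 of 3 immune markers had a peak in either list.

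Actin filaments are joined into networks by crosslinkers, many of which carry a pair of calponin homology domains that bind actin. Filamins are long flexible dimers that hold filaments at wide angles, α-actinins are short rods that make parallel bundles, and spectrins form the mesh under the plasma membrane. Plakin cytolinkers join different filament systems: plectin ties intermediate filaments to actin and to hemidesmosomes, MACF1 ties microtubules to actin, and dystonin anchors keratins at hemidesmosomes. Filamins, spectrins and plakins are large proteins built of repeats. The lengths of the mRNAs were not available here.

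MetDiff peaks were found in 7 of the 9 genes and summits in 6, while FLNC and DST had neither. Among all protein-coding genes, 21.3% had a MetDiff peak in their span and 9.46% a summit. Among the 9623 genes with a span at least as long as that of FLNA, the shortest of the 9, the shares were 22.2% and 8.44%. The genes were chosen with these lists in view, and the background also counts genes that may be silent in PANC-1. All 6 genes with a summit also had a MetDiff peak, as did 1618 of the 1896 protein-coding genes with a summit. Genes with both were 8.07% of all protein-coding genes. MACF1 had MetDiff peaks only. The numbers differed widely within the family, from 0 to 12 MetDiff peaks and from 0 to 21 summits.

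**Figure D1:**
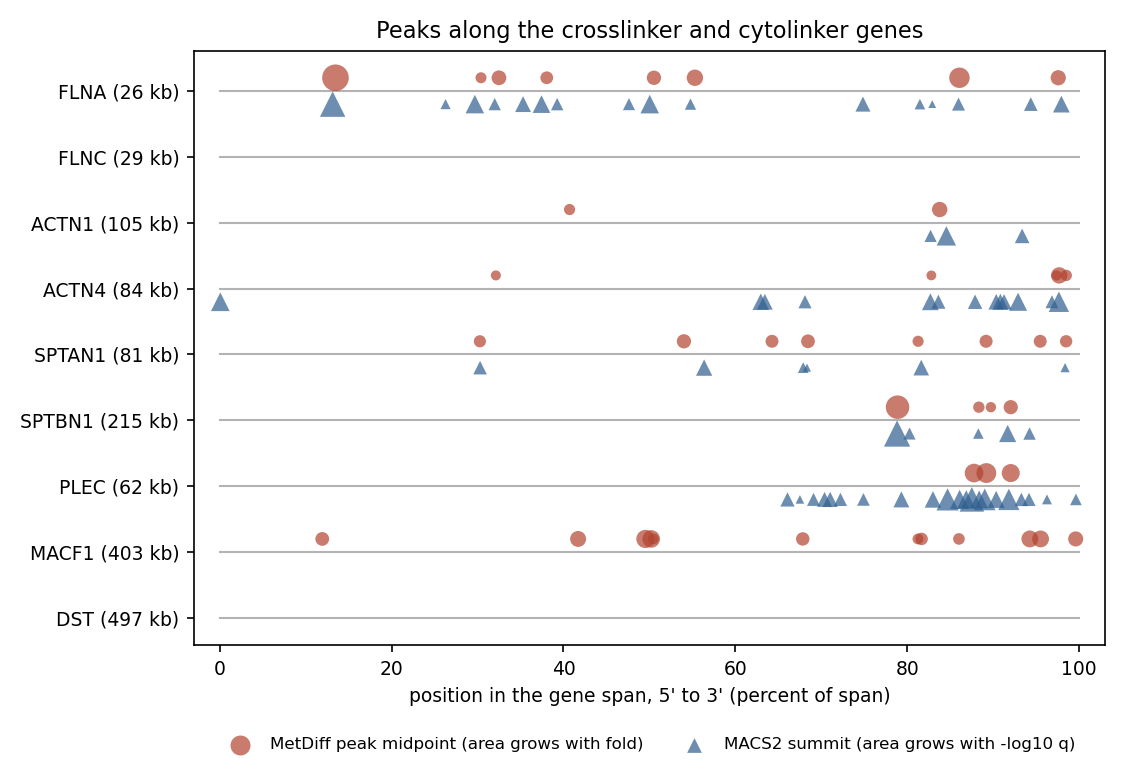
Positions of MetDiff peak midpoints (circles, area growing with fold) and MACS2 summits (triangles, area growing with −log10 q) along each gene. Positions are a percent of the gene span from its 5′ to its 3′ end, with 1 line per gene. FLNA peaks spread over most of the gene, PLEC summits begin at 66.1% of the span, MACF1 has 12 peaks and 0 summits, and FLNC and DST are empty.

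FLNA encodes filamin A, the most widely expressed filamin. Its span (chromosome X, 154348531 to 154374634, minus strand, 26.1 kb) held 8 MetDiff peaks and 16 summits. The fold of the MetDiff list, the authors' own value read here as precipitated over input RNA, lay between 2.01 and 18.9 over these peaks, and its median was 4.98. The strongest peak lay at 154371045 to 154371194, at 13.5% of the span from the 5′ end, with a fold of 18.9 and a false discovery rate (FDR) of 1.29e-05. That fold was reached by 172 of all 9585 peaks (1.79%). The second, with a fold of 10.5, lay at 154352008 to 154352317 at 86.1% of the span, and the other 6 had folds between 2.01 and 6.25. The strongest summit of the gene sat beside the strongest peak, at 154371205 with −log10 q of 69.5, and the next one reached 34.8 (154361572). All 8 peaks had a summit within 150 bases. The FDRs were modest for several peaks: at an FDR under 0.001 only 3 of the 8 remained. FLNC encodes the filamin of muscle, and its span (chromosome 7, 128830406 to 128859272, 28.9 kb) held no peak of either list.

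The α-actinins differed in number. ACTN4 (chromosome 19, 38647649 to 38731589, plus strand, 83.9 kb), which encodes a non-muscle α-actinin, held 5 MetDiff peaks and 13 summits. ACTN1 (chromosome 14, 68874128 to 68979302, minus strand, 105 kb), which encodes the other non-muscle form, held 2 and 3. The MetDiff peaks of ACTN4 had folds of 1.41, 1.28, 1.45, 6.22 and 2.2 from the 5′ to the 3′ end, so that 3 of the 5 were under a fold of 2. The peak with a fold of 6.22 lay at 38729604 to 38729704, at 97.7% of the span, and held the strongest summit of the gene (38729626, −log10 q of 42.9). The last peak, at 38730299 to 38730398, also lies in the span of CAPN12, which overlaps the 3′ end of ACTN4. The list gives it the Ensembl ID of the other 4 peaks. The ACTN4 summits had −log10 q between 14.4 and 42.9 (median 23.7), and 9 of the 13 reached 20. ACTN1 had peaks with folds of 5.32 (68890169 to 68892185) and 2.10 (68925591 to 68947382), each joining 2 exon blocks, and summits of 38.3, 19.6 and 12.4. Its strongest summit, at 68890362, lay 76 bases from a block of the stronger peak.

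ACTN4 alone among the 9 genes had a summit at its 5′ end, at 38647699 with −log10 q of 35.1. This is base 51 of the span, counted from 1 at the annotated start. The 30 bases just before it, bases 21 to 50 of the span (GRCh38.p14, chromosome 19, 38647669 to 38647698, plus strand, from the RefSeq promoter table), are shown because they are the only stretch beside a summit of these genes that the sequence tables hold. Capitals mark guanines, the base that the antibody recognises in methylated form.

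ACTN4: aGcGGcGGcGGctcGGGcaGaGGGGcGGGa

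Of these 30 bases, 18 were guanines (60%). The same stretch held a median of 11 guanines in the 15843 protein-coding genes with an entry, and at least 18 in 388 of them (2.45%). Of 1552 protein-coding genes with a summit and a listed strand, 161 (10.4%) had a summit in their first 100 bases. The nearest ACTN4 MetDiff block lay 533 bases away, at 38648232. It is the first of the 3 blocks of the peak with a fold of 1.41, which runs to 38701007. The MetDiff list thus holds a peak that begins near this start, but none at the summit itself.

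The spectrins α-II (SPTAN1) and β-II (SPTBN1) form the tetramers of the membrane skeleton in non-erythroid cells. SPTAN1 (chromosome 9, 128552587 to 128633662, plus strand, 81.1 kb) held 8 MetDiff peaks spread from 30.3% to 98.5% of its span. Their folds lay in a narrow range, from 2.09 to 4.34 with a median of 3.32, and 6 of the 8 had an FDR at or under 1e-08. The lowest FDR, 5.01e-14, was shared by 5 of them. Its 6 summits had −log10 q between 2.64 and 25.5. SPTBN1 (chromosome 2, 54456327 to 54671446, plus strand, 215 kb) held 4 MetDiff peaks with folds of 14.4, 2.23, 1.57 and 4.32 from the 5′ to the 3′ end. The first of these, at 54625947 to 54626096 and 78.9% of the span, stood apart from the other 3. Beside it, at 54625905, lay the strongest summit of all 9 genes, with −log10 q of 74.5, a value reached by 48 of the 3705 summits (1.30%). The other 4 SPTBN1 summits had 29.1, 12.9, 11.8 and 7.85. The stretch from the annotated start to that summit, which is most of the span and includes introns, held no peak of either list.

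PLEC encodes plectin, and it had the most summits of the 9 genes, 21 in 14 MACS2 peaks, against only 3 MetDiff peaks. Its span is chromosome 8, 143915153 to 143976745, 61.6 kb, with the minus strand given by the MetDiff list. The 3 peaks had folds of 7.87, 9.80 and 8.54 and lay within 2858 bases of each other (143919944 to 143922801), each in 1 block of 201 to 251 exonic bases. The lowest of these folds exceeded every fold in SPTAN1, ACTN1 and ACTN4, but not the highest folds in FLNA, SPTBN1 and MACF1. Each had a summit within 150 bases, at 143920181 (−log10 q of 47.4), 143921909 (49.5) and 143922835 (64.4). The other 18 summits had no MetDiff block within 150 bases. Of the 21, 13 lay on the 5′ side of all 3 peaks, 4 between them and 4 on the 3′ side. Strong summits were among those without a MetDiff neighbour, such as 143924574 with 51.7. The median gap between neighbouring summits was 878.5 bases, and 12 of the 21 fell in a window of 10000 bases at the 3′ end of the gene. Only 3 protein-coding genes, PLEC included, had 21 summits or more, or 2 when only summits in the span of 1 protein-coding gene were counted. Among the 1618 genes with both a summit and a MetDiff peak, 47 (2.90%) had at least 3 times as many summits as MetDiff peaks. At a ratio of at least 7, that of PLEC itself, 2 genes remained, PLEC included.

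MACF1 (chromosome 1, 39084167 to 39487138, plus strand, 403 kb) showed the opposite pattern, with 12 MetDiff peaks and 0 summits. The peak midpoints ran from 11.9% to 99.6% of the span, and the folds lay between 1.85 and 8.03 (median 4.50). The stretch from the start of the first peak to the end of the last was 94.3% of the span. The highest fold was that of the peak at 39283464 to 39284114, with an FDR of 2.34e-05. The lowest FDR, 1e-12, belonged to the first peak, which joins 2 exon blocks across 53297 bases of the genome (39105577 to 39158873) with a fold of 3.96. In all, 6 of the 12 peaks had an FDR at or under 1e-08. A MetDiff peak without a summit in the gene was common: it held for 2648 of the 4266 genes with a MetDiff peak (62.1%). Counting only peaks in the span of 1 protein-coding gene, 11 genes had 12 MetDiff peaks or more, and 4 of them had 0 summits, namely MACF1, EPPK1, ABCA2 and SRCAP (the last pair named after the values were seen). EPPK1 encodes epiplakin, another plakin. DST (chromosome 6, 56457996 to 56954830, 497 kb), the longest of the 9 spans, held no peak of either list. Of the 320 protein-coding genes with a span at least that long, 19 had a MetDiff peak (5.94%) and 12 a summit (3.75%).

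**Figure D2:**
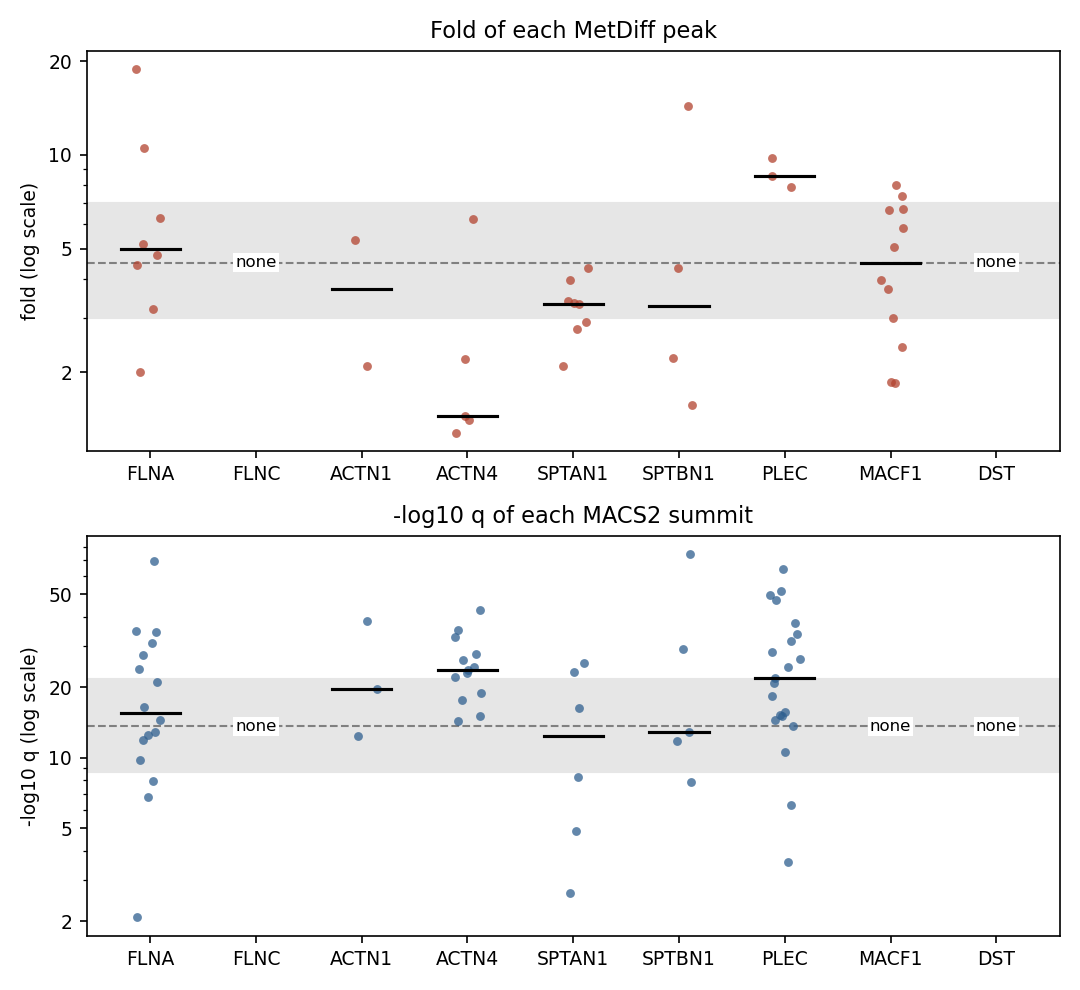
Fold of each MetDiff peak (upper panel, log scale) and −log10 q of each MACS2 summit (lower panel, log scale) in the 9 genes, with 1 point per peak or summit, black bars at the gene medians, and the median (dashed) and interquartile range (grey) of the whole list. PLEC has the highest median fold (8.54) and ACTN4 the lowest (1.45), while ACTN4 has the highest median −log10 q (23.7).

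Ordered by median fold, PLEC (8.54) was followed by FLNA (4.98), MACF1 (4.50), ACTN1 (3.71), SPTAN1 (3.32), SPTBN1 (3.28) and ACTN4 (1.45). The ranges of all neighbours in this order overlapped. Over the 42 peaks the median fold was 3.96, against 4.50 over all 9585 peaks, and 3 of the 42 (7.14%) reached a fold of 10, against 1150 of all 9585. The fold in these genes was thus not above that of the list. FDRs were lower: 12 of the 42 peaks (28.6%) had an FDR at or under 1e-08, against 6.80% of all peaks, and these 12 belonged to SPTAN1 and MACF1 in equal number. The gene order by summit strength was another one. Median −log10 q was 23.7 in ACTN4, 21.9 in PLEC, 19.6 in ACTN1, 15.5 in FLNA, 12.9 in SPTBN1 and 12.3 in SPTAN1, with overlapping ranges. Over the 64 summits the median was 20.9, against 13.7 over all 3705. These are differences in the significance that the callers gave, which grows with read number as well as with enrichment. RNA levels of the genes were not analysed here, so their part in these values was not tested.

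Peak number was then related to gene length. The lengths are gene spans with introns, since the tables used here hold no transcript or coding lengths. Across the 4266 protein-coding genes with a MetDiff peak, the number of peaks hardly followed the span. The slope of log2 number on log2 span was 0.0321 ± 0.00812 (SE), so that a span 10 times as long went with 1.08 times as many peaks, and the span accounted for a share of 0.00364 of the variance (R2). Spearman's rho was 0.0395 across genes, which are not independent replicates, share the same libraries and in part share spans. For the 1896 genes with a summit the slope was -0.000432 ± 0.0105 (SE) and rho was -0.0513. The share of genes with a MetDiff peak was 17.1% for the 5707 genes with spans under 10 kb, 24.5% for 10 to 30 kb, 23.5% for 30 to 100 kb and 22.3% for 100 to 300 kb and 9.57% for the 773 genes of at least 300 kb, so that it was lower at both ends. For summits it was 9.41%, 11.6%, 9.12%, 7.32% and 3.75% in the same order.

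Against that fit, the 9 genes ranged from none to many times the fitted number. The size of these ratios depends on the genes fitted: they were larger against a Poisson fit over all 20050 protein-coding genes, most of them without a peak. MACF1 had 12 MetDiff peaks where 2.03 were fitted (5.91 times), FLNA 8 where 1.86 were fitted (4.30 times) and SPTAN1 8 where 1.93 were fitted (4.15 times). ACTN4 had 2.59 times, SPTBN1 2.01 times, PLEC 1.57 times and ACTN1 1.03 times the fitted number. For MACF1, 0.867% of the genes in the fit lay at least as far above it, and for ACTN1 52.5%. The fit was made on genes with at least 1 peak, so FLNC and DST, with 0, lie outside it. Against the Poisson fit over all protein-coding genes, MACF1 had 17.9 times, FLNA 15.7 times, SPTAN1 14.04 times, ACTN4 8.74 times, SPTBN1 6.36 times, PLEC 5.41 times and ACTN1 3.42 times the fitted number of MetDiff peaks. By summits, PLEC stood at 14.4 times its fitted number of 1.46, FLNA at 10.99 times, ACTN4 at 8.93, SPTAN1 at 4.12, SPTBN1 at 3.44 and ACTN1 at 2.06 times. A summit excess at least as large was found in 0.158% of the genes with a summit for PLEC and 0.369% for FLNA. Against the Poisson fit over all protein-coding genes, the summit ratios were 121 for PLEC, 91.9 for FLNA, 74.8 for ACTN4, 34.5 for SPTAN1, 28.8 for SPTBN1 and 17.3 for ACTN1. Length did not order the 9 genes either: of the pair of longest spans, MACF1 had the most MetDiff peaks and DST none, and of the pair of shortest, FLNA had 8 and FLNC none. Per 10 kb of span, FLNA had the most of both, with 3.06 MetDiff peaks and 6.13 summits. It was followed for MetDiff peaks by SPTAN1 (0.987), ACTN4 (0.596), PLEC (0.487), MACF1 (0.298), ACTN1 (0.190) and SPTBN1 (0.186). Summits per 10 kb were 3.41 in PLEC, 1.55 in ACTN4, 0.740 in SPTAN1, 0.285 in ACTN1 and 0.232 in SPTBN1. Among genes with a MetDiff peak, 14.9% were at least as dense as FLNA, 42.3% as SPTAN1 and 55.7% as ACTN4. The shares were 60.4% for PLEC, 72.8% for MACF1, 82.4% for ACTN1 and 83.0% for SPTBN1. For summits they were 5.64% (FLNA), 13.5% (PLEC), 30.2% (ACTN4), 48.8% (SPTAN1), 73.3% (ACTN1) and 77.8% (SPTBN1).

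**Figure D3:**
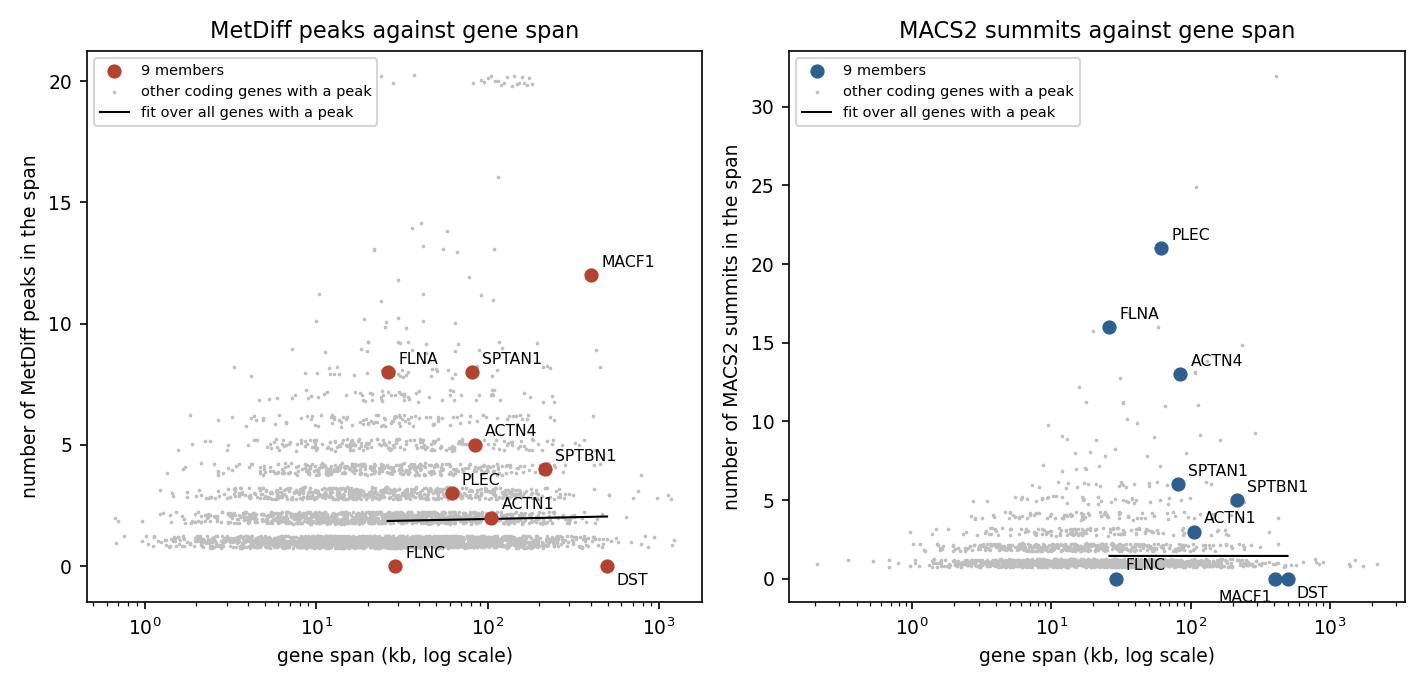
Number of MetDiff peaks (left) and MACS2 summits (right) in each protein-coding gene against its span in kb (log scale), with the 9 genes as large labelled points, other genes with a peak in grey (spread slightly in the vertical for visibility) and the fit over all genes with a peak as a line. MACF1, FLNA and SPTAN1 lie well above the nearly flat line on the left, PLEC, FLNA and ACTN4 on the right, and FLNC and DST lie at 0 in both.

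For comparison, the largest MetDiff numbers outside the 9 genes, 20 each, belonged to PCDHGA1, PCDHGA2, PCDHGA3, PCDHGB1 and PCDHGA4, genes of the protocadherin gamma cluster with nested spans that share the same peaks. Counting only peaks in the span of 1 protein-coding gene, LAMA5, AHNAK2 and AGRN led with 14 each and MRC2 and AKT2 were among those with 13, so that MACF1 lay just below them. Counting all peaks in a span, the other genes with exactly 12 were NUMA1 (77.7 kb, 4 summits) and SBF1 (30.04 kb, 1 summit), both with spans far shorter than that of MACF1. Summits, counted in every span that holds them, were most numerous in the collagen genes COL5A2 (32) and COL18A1 (25). Outside the 9 genes, AKT2 and AGRN (17 each) and LAMA5 (16) followed.

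Most peaks lay toward the 3′ end of the spans. Of the 42 MetDiff peaks, 23 (54.8%) were in the last 20% of the span and 2 (4.76%) in the first 20%, against 37.0% and 22.6% of the 8699 peaks of the list that lie in 1 protein-coding gene. Of the 64 summits, 36 (56.3%) were in the last 20% and 2 (3.13%) in the first 20%, against 35.3% and 20.7% of 3166 summits. FLNA went against this, with 2 of its 8 MetDiff peaks in the last 20% and its strongest peak near the start. In PLEC all 3 peaks and 13 of 21 summits, and in SPTBN1 3 of 4 peaks and 4 of 5 summits, were in the last 20%. Spans contain introns, so this is a position in the gene and not in the mRNA. MetDiff peaks were placed by the midpoint of their genomic stretch, so a peak that joins distant blocks can be placed in an intron. The ACTN4 peak that begins at 38648232 was placed at 32.1% of the span. Weighted by exonic length, the median position of the 42 peaks was 81.47%, against 81.48% by midpoint. The shares in each 20% were not recomputed in that way. Of the 42 MetDiff peaks, 18 (42.9%) joined blocks of more than 1 exon, against 33.4% of the whole list, and they covered 100 to 251 exonic bases each. Of the 64 summits, 24 (37.5%) shared their MACS2 peak with another summit, against 12.1% of the whole list. One PLEC peak held 5 summits, a number reached by 4 of 3456 MACS2 peaks.

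Pooled over these genes, most summits did not lie beside a MetDiff peak, but the genes differed. Of the 64 summits, 3 lay inside a MetDiff exon block (4.69%, 95% Wilson interval 1.61 to 12.9, which covers counting error only), against 652 of the other 3641 summits (17.9%, 16.7 to 19.2). Within 150 bases of a block lay 25 of the 64 (39.1%, 28.1 to 51.3) and 2333 of the other 3641 (64.1%, 62.5 to 65.6). The extent of the MACS2 peaks is not in the list, so only the summits could be placed. Summits of 1 gene are not independent, and PLEC alone gave 18 of the 39 that lay farther away. Within 150 bases lay 5 of 6 summits in SPTAN1, 3 of 5 in SPTBN1 and 2 of 3 in ACTN1. In FLNA it was 8 of 16, in ACTN4 4 of 13 and in PLEC 3 of 21. Counted from the MetDiff side, 23 of the 42 peaks had a summit within 150 bases (54.8%), or 23 of 30 without MACF1 (76.7%), against 2414 of the other 9543 MetDiff peaks (25.3%).

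The summit lay on the 5′ side of its MetDiff block in 21 of these 23 pairs (91.3%, Wilson interval 73.2 to 97.6). Distances were taken from the midpoint of the nearest exon block to the summit along the gene strand, with negative values on the 5′ side. The median was -116.5 bases (interquartile range -134 to -95.8). FLNA and PLEC on the minus strand, with summits at higher coordinates than their blocks, and SPTBN1 and ACTN4 on the plus strand, with summits at lower coordinates, showed the same side in transcript terms. The exceptions were the FLNA peak with a fold of 10.5 (59 bases to the 3′ side) and the last SPTAN1 peak (38 bases to the 3′ side), both with several blocks. All 13 pairs with a block in 1 exon had the summit on the 5′ side. The offset was general to the lists: among the other 2414 pairs it was on the 5′ side in 84.9% (83.4 to 86.3), with a median of -104.5 bases, in 84.5% of 1210 pairs on the plus strand and 85.4% of 1204 on the minus strand. The reason for it was not tested.

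**Figure D4:**
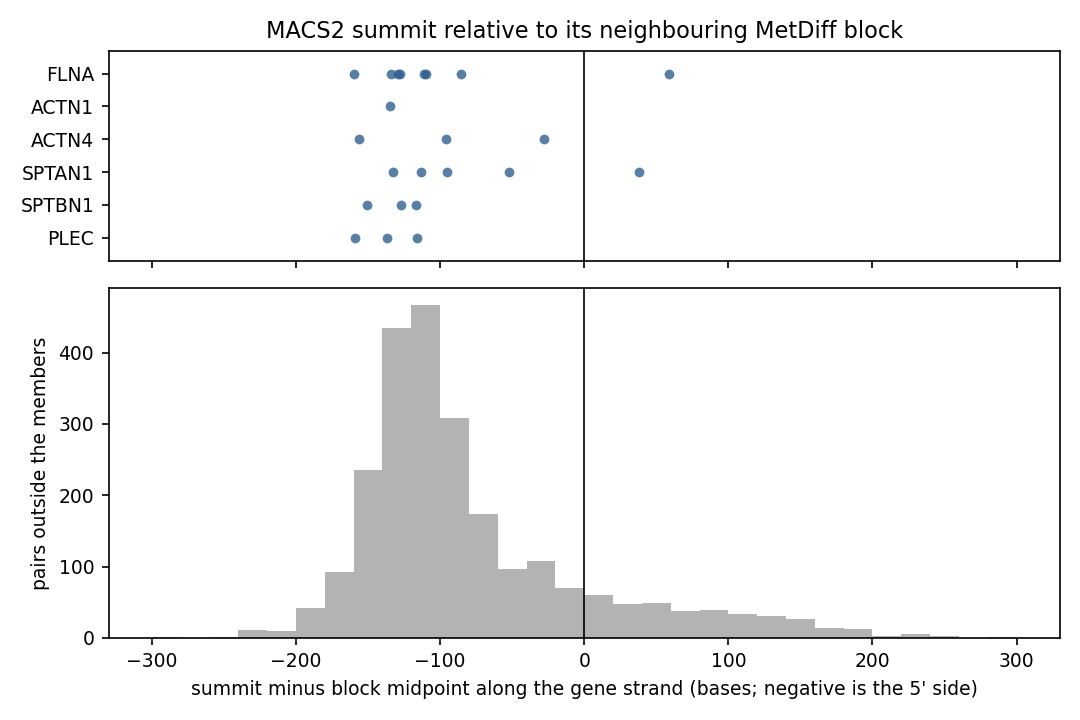
Distance of the MACS2 summit from the midpoint of its neighbouring MetDiff exon block along the gene strand, in bases, with negative values on the 5′ side, for the 23 pairs of the crosslinker and cytolinker genes (upper panel, 1 point per pair) and as a histogram of the other 2414 pairs in bins of 20 bases (lower panel). In both panels most pairs lie to the left of 0, with medians of -116.5 and -104.5 bases.

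Among 28 related genes (among them α-actinins, spectrins, plakins, spectrin-repeat proteins, ankyrins, adducins, band 4.1 proteins and plastins), 10 had a MetDiff peak (35.7%) and 6 a summit (21.4%), against 21.3% and 9.46% of all protein-coding genes. The muscle α-actinins ACTN2 and ACTN3, and the spectrin genes SPTB, SPTBN4 and SPTBN5, had none in either list. Among the plakins, EPPK1 had 13 MetDiff peaks with folds of 2.29 to 11.8, and envoplakin (EVPL) had 7 with folds of 2.00 to 12.4, both without a summit. Periplakin (PPL) had 2 of each kind, and desmoplakin (DSP) 1 MetDiff peak with a fold of 2.27.

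The other related genes had few peaks. ADD1, an adducin that caps actin and recruits spectrin, had 3 MetDiff peaks (highest fold 13.5) and 1 summit. Ankyrins link spectrin to membrane proteins, and of these ANK1 had 2 MetDiff peaks with folds of 2.42 and 4.00, while ANK2 and ANK3 had none. The plastin PLS3, an actin bundler, had 1 of each kind, with a fold of 1.83. The nesprin SYNE2 had 1 MetDiff peak (fold 4.40), and the dystrophin relative UTRN and EPB41L2 had 1 summit each. In all, 16 of the 28 had no peak in either list, among them DMD, which has the longest span of these genes (2220 kb). A gene without a peak is one that the callers did not list. It cannot be told from these lists whether its RNA was absent or present and not bound.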

How the data were processed

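The submitters' processing notes name STAR 2.7.1 and MACS2 2.2.5 with GRCh38, besides ChIPseeker, DESeq2, edgeR, featureCounts, bedtools, Picard and SAMtools. Their settings and any pooling of libraries were not stated in these sources, nor is the origin of the MetDiff list. The deposited lists have no header. The deposited MACS2 value was read as −log10 of a q-value (smallest 1.35). The deposited MetDiff values were read as a p-value (at most 0.025), the log10 of an FDR and a ratio, taken as fold of IP over input from its place in the layout, which no header states. If the fold is another contrast, its meaning changes. Fold, FDR and −log10 q are the authors' values throughout.

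A peak was given to a gene when all its exon blocks lay in the RefSeq span (GRCh38.p14), and 96.2% of MetDiff peaks lay in a protein-coding span, against 52.7% after a move of 1000000 bases. The planned coding length was not available, so gene span took its place, by least squares on the log2 scale (Python 3.11.15, numpy 2.4.6, SciPy 1.17.1), tested on simulated data. No genome was used, so the sequences and base composition of the peaks, apart from 1 stretch of the RefSeq promoter table beside an ACTN4 summit, and their exon positions were not analysed here. The planned knockdown comparison was not made.

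The members and lists were chosen with earlier results of these data known, so counts are descriptions. Genes named are the 9 members, related genes with a peak (some are counted but not reported here), the 5 other genes with most peaks of each kind and up to 3 with as many MetDiff peaks as MACF1. Related genes with no peak, such as DMD, and the genes that lead when shared peaks are left out were named after their values were seen. Alternatives covered gene assignment, thresholds, counting units, length fit and leaving out single members.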

Additional observations from a re-analysis of the deposited data

How the results depend on the processing

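No paired analysis was possible because the lists hold no value per library, and for the same reason no replicate could be left out. The 42 MetDiff peaks and 64 summits stayed within 1.5 times their number under each alternative of assignment, threshold and counting unit run, and 7 and 6 of the genes kept a peak. Single genes moved more: FLNA had 3 MetDiff peaks at FDR under 0.001 (8 listed), ACTN4 had 2 at a fold of at least 2 (5 listed) and SPTAN1 had 3 summits at −log10 q of at least 10 (6 listed). Leaving out 1 gene in turn gave 30 to 42 MetDiff peaks, 43 to 64 summits and a median fold of 3.56 to 4.61. The share of summits at a block, 4.69% inside, was 20.3% within 50 bases and 39.1% within 150. The slope of MetDiff peak number on span, 0.0321, was 0.0665 by Poisson regression and 0.101 with genes without a peak included. That of summits, -0.000432, was 0.0557 by Poisson regression and -0.00103 with genes without a summit included. MetDiff peaks per 10 kb over all 9 spans, 0.280, were 0.418 without DST. The share of pairs with the summit on the 5′ side was 91.3% (23 pairs), 100% for the 13 with a block in 1 exon, 84.6% for the 13 within 50 bases and 87.5% for the 24 within 300 bases; this measure and its alternatives were chosen after seeing the data. Coding length in place of span was not run. The depth of the libraries is unknown, so it is not known how far the peaks missing in FLNC, DST and other genes depend on it.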
